A study of Gossypium hirsutum with 6 samples.

Results

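The genes described here are the enzymes and carriers that set auxin levels and auxin flow in the leaf of upland cotton (Gossypium hirsutum). They were every row of the deposited gene table whose protein description names an indole-3-pyruvate monooxygenase, a tryptophan aminotransferase, an indole-3-acetic acid-amido synthetase, an IAA-amino acid hydrolase, an auxin efflux carrier, a PIN-LIKES protein or an auxin transporter. That gave 138 of 72761 genes. The rule reads descriptions only, but this set of genes was taken up with earlier results of these data known. Poly-A selected leaf RNA was sequenced in 6 libraries, of which 3 were of transgenic lines titled FPF1, after flowering promoting factor 1, and 3 were of the wild type, titled W10. The study is about FPF1 in shade avoidance, the growth response of plants to neighbours. The labels used here do not give the promoter of the transgene, the direction in which FPF1 was altered, the number of lines, the age of the leaves or the light in which the plants stood. They also do not say that replicates were separate plants, so each p-value rests on a spread between samples that could be technical.

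Indole-3-acetic acid (IAA), the main auxin, is made from tryptophan by aminotransferases of the TAA/TAR family, which yield indole-3-pyruvate, and by flavin monooxygenases of the YUCCA family, which turn that product into IAA. GH3 synthetases join IAA to amino acids and so withdraw it, while ILR1-like amidohydrolases can free it again. PIN proteins carry IAA out of cells, in many tissues from one side only, AUX1/LAX proteins carry it in, and PIN-LIKES (PILS) proteins sit in the endoplasmic reticulum. In Arabidopsis, shade raises auxin synthesis in the leaf blade, and PIN carriers pass the hormone to the organs that elongate.

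The FPF1-like gene GH_D02G0524 measured 133, 199 and 195 FPKM (a level scaled for gene length and library size) in the transgenic libraries and at 0, 0 and 0.467 FPKM in wild-type leaves, so the labels separated the libraries at this gene. Each library had 52037 to 53560 genes above 0. The number of reads is unknown, but depth relative to transgenic 1, estimated from the smallest values, was 0.99 to 1.14 in the transgenic libraries and 1.19 to 1.28 in the wild type. Of 43837 genes tested across the table, 2500 were called at an adjusted p under 0.05 (limma-trend, Benjamini-Hochberg), and 68.8% of these calls were higher in the transgenic libraries, against 53.7% of 2224 calls after median-of-ratios scaling. Only 289 genes were called without transgenic 2, 420 without wild type 1 and 803 without transgenic 3. Markers of mesophyll, the photosynthetic tissue of the leaf, were plentiful in every library, with a summed level of 3450 to 4700 FPKM in transgenic leaves and 4843 to 6452 FPKM in wild-type leaves.

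Called auxin genes lay in the GH3, PIN and AUX/LAX families. None of the 8 tested synthesis genes was called, though 1 untested synthesis gene was called once the level filter was dropped, and the difference between steps of the pathway was not tested. Higher in the transgenic libraries were, among others, an AUX1/LAX influx carrier and a pair of GH3.6 synthetases. Lower were a PIN4-like efflux carrier and a GH3.1 synthetase. These were 6 of the 67 members expressed enough to be tested (1 FPKM or more on average in either group), or 8.96%, beside 5.7% of all genes tested. The 4 rises were 5.97% of the tested members beside 3.92% of all genes, and the 2 falls 2.99% beside 1.78%, so the shares lay close to the background. An unadjusted p under 0.05 was found in 27 of the 67 (40.3%), beside 24% of all genes tested. The groups did not overlap in 28 members (41.8%, beside 30.1% of all tested genes), of which 19 were higher (28.4%, beside 20.6%) and 9 lower (13.4%, beside 9.51%). None of the 6 calls held without transgenic 2 or without wild type 1.

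**Figure D1:**
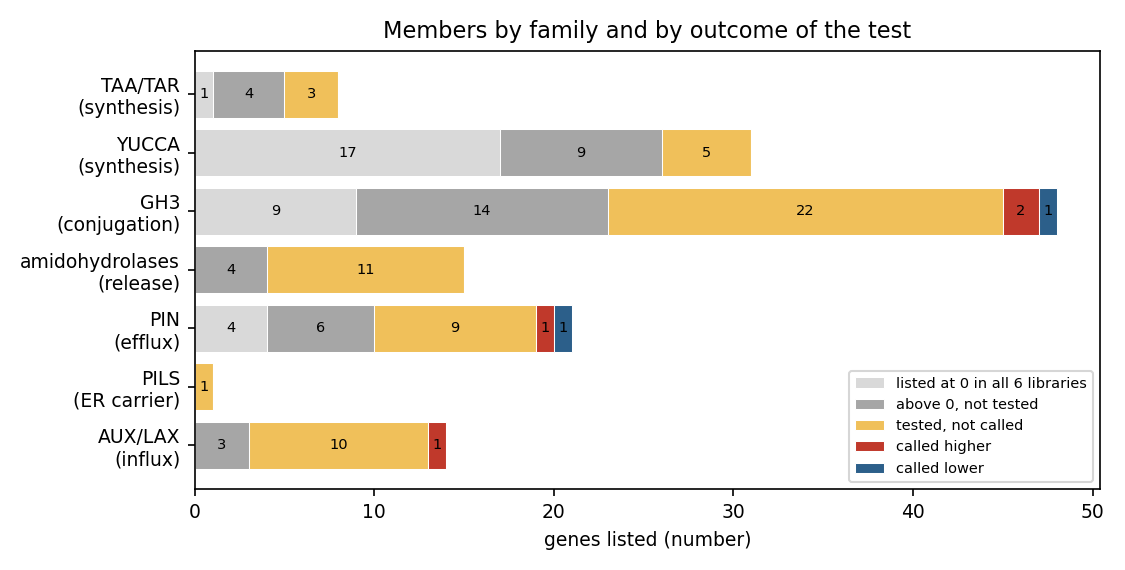
Members by family, as the number of genes listed, split into those listed at 0 in all 6 libraries, those above 0 but not tested, those tested and not called, and those called higher or lower in the transgenic libraries. The YUCCA family has 17 of its 31 genes at 0, and the 6 calls lie in GH3, PIN and AUX/LAX.

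Of the 138 members, 31 were listed at 0 in all libraries and 40 more were above 0 but below the level for testing. Of the 67 tested members, 59 passed that level in both groups, 5 through the transgenic libraries alone and 3 through the wild type alone. Levels of 10 FPKM or more, averaged over all libraries, were reached by 18 members, among them 5 GH3 synthetases, 5 amidohydrolases and 6 AUX/LAX carriers. The genes were spread over both subgenomes of this tetraploid, 71 on A chromosomes and 66 on D chromosomes by their identifiers, with 1 on a scaffold. The tested members were 35 A genes and 32 D genes, and of the 6 calls 5 were D genes. The share of D genes among all calls of the table is not known here, so this count is a description only. Reads of close copies in the A and D subgenomes may be shared between identifiers.

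Summed over each family, transcripts of GH3 and AUX/LAX genes were the most abundant of the pathway. GH3 genes summed to 196, 217 and 234 FPKM in transgenic leaves and to 190.5, 155 and 173 FPKM in wild-type leaves. AUX/LAX genes summed to 190, 195 and 171 FPKM in transgenic leaves and to 149.5, 182 and 141 FPKM in wild-type leaves, with wild type 2 inside the transgenic range. The GH3 sums did not overlap as deposited, but after median-of-ratios scaling transgenic 1 was at 192 FPKM and wild type 1 at 195 FPKM, and the groups also overlapped with upper quartile scaling. YUCCA genes summed to 39.9 ± 3.23 FPKM in transgenic leaves and 48.8 ± 7.99 FPKM in wild-type leaves, and TAA/TAR genes to 13.4 ± 2.22 FPKM and 10.05 ± 2.15 FPKM (mean ± SD, n = 3 each, as for all levels given with ±). PIN genes summed to 74.3 ± 12.4 FPKM in transgenic leaves and 79.0 ± 5.27 FPKM in wild-type leaves, and amidohydrolases to 104 ± 8.47 FPKM and 104 ± 8.18 FPKM. In these other families the ranges of the groups overlapped as deposited, while with either scaling the YUCCA sums were lower in all transgenic libraries. The gap was narrow, between 41.1 FPKM in transgenic 3 and 43.0 FPKM in wild type 2 with median-of-ratios scaling. With upper quartile scaling these libraries stood at 41.7 and 41.9 FPKM. The scaled sums were added after the data were seen. These sums are a description and were not tested. In bulk leaf RNA, fewer cells of a type and less RNA per cell cannot be told apart.

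**Figure D2:**
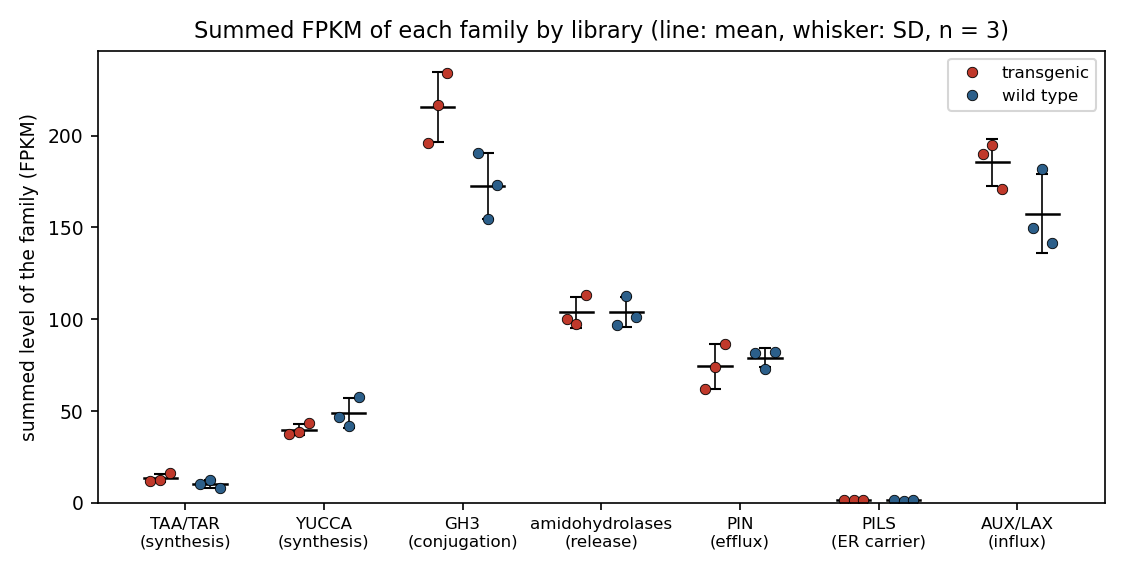
Summed FPKM of each family in each library (points), with the mean and SD of the 3 libraries of a group, transgenic in red to the left of the wild type in blue. The GH3 sums lie at 196 to 234 FPKM in transgenic leaves and 155 to 190.5 FPKM in wild-type leaves, a gap that closes under either scaling.

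Synthesis of IAA came down to very few expressed genes. Among the TAA/TAR aminotransferases, at the first step from tryptophan, 3 of 8 genes were tested and none was called by limma. An unadjusted p under 0.05, found in 24% of all genes tested, was found in 2 of the 3. Those were a pair of TAR2-like genes, one in each subgenome. GH_A09G1881 measured 4.21, 5.01 and 6.61 FPKM in transgenic leaves and 3.40, 3.19 and 2.53 FPKM in wild-type leaves (log2 fold change 0.62, standard error 0.185, adjusted p = 0.0959). GH_D09G1833 measured 2.90, 3.40 and 4.43 FPKM in transgenic leaves and 1.72, 1.41 and 2.39 FPKM in wild-type leaves (log2 0.69, standard error 0.203, adjusted p = 0.0941). All transgenic libraries lay above all wild-type libraries in both genes, but neither passed the threshold over all genes, whichever library was left out (adjusted p 0.0705 to 0.246). The remaining tested gene, the TAR4-like GH_A01G1204, averaged 3.59 ± 0.448 FPKM in transgenic leaves and 4.60 ± 1.94 FPKM in wild-type leaves. Fold changes here and below are on the log2(FPKM + 1) scale, positive where the transgenic libraries are higher, and this scale understates the change of genes at low levels.

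YUCCA monooxygenases, which carry out the last and limiting step of IAA synthesis, were mostly silent in these leaves. Of 31 genes, 17 were listed at 0 in every library, including all 4 YUCCA3 genes and all genes described as YUCCA5 or YUCCA11. A single gene, the YUCCA10 GH_D08G1408, made up 75.6% of the family's transcript level in the transgenic libraries and 89.0% in the wild type. It measured 29.6, 27.5 and 33.4 FPKM in transgenic leaves and 41.3, 35.3 and 53.8 FPKM in wild-type leaves (log2 -0.50, standard error 0.163, adjusted p = 0.123). The groups did not overlap, with wild type 3 far above the rest, and the gene was not called in any setting tried. Of the 5 tested YUCCA genes 3 had an unadjusted p under 0.05, beside 24% of all genes tested. Besides GH_D08G1408, 3 tested genes had differences of 0.48 to 0.64, none called. Among these, GH_D05G0106 and GH_A05G0503 passed the level filter through the transgenic libraries alone, so their means were bound to be higher there. The last, GH_A08G1386, had 2.08, 1.30 and 1.63 FPKM in transgenic leaves and 2.05, 3.56 and 0.0471 FPKM in wild-type leaves, so its mean was lower in transgenic leaves while its log2 difference was 0.12. The next in size was another YUCCA10 gene, GH_A08G0781, at 1.85, 3.08 and 4.09 FPKM in transgenic leaves and 1.78, 1.64 and 1.13 FPKM in wild-type leaves (adjusted p = 0.170).

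All 5 YUCCA6-like genes stayed low. GH_A05G0503 and GH_D05G0503 had higher values in the transgenic libraries, and the D gene is described because of its values. In GH_A06G1030, GH_A07G0283 and GH_D06G1045 the groups overlapped, and GH_D06G1045 was above 0 in wild type 2 alone. GH_A05G0503 measured 1.51, 1.42 and 1.08 FPKM in transgenic leaves and 0.661, 0.748 and 0.348 FPKM in wild-type leaves, without a call (adjusted p = 0.149). It passed the level filter only through the transgenic libraries. GH_D05G0503, with the same number on the partner chromosome, measured 0.767, 1.01 and 0.768 FPKM in transgenic leaves and was listed at 0, 0.113 and 0.131 FPKM in wild-type leaves. It was too low to be tested with the level filter. Without any filter it was called (log2 0.77, standard error 0.110, adjusted p = 0.0226), and it was marked as significant in the authors' deposited table, with a ratio of mean FPKM of 10.4.

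Among GH3 synthetases, which conjugate IAA to amino acids and many of which are induced by auxin, 2 genes rose and 1 fell of 25 tested. Both rises were GH3.6 genes that share a gene number on chromosomes A01 and D01. GH_A01G0693 measured 21.5, 27.3 and 28.2 FPKM in transgenic leaves and 16.9, 12.8 and 10.8 FPKM in wild-type leaves (log2 0.89, standard error 0.178, adjusted p = 0.0354). GH_D01G0693 measured 24.4, 32.6 and 25.4 FPKM in transgenic leaves and 18.2, 16.6 and 14.7 FPKM in wild-type leaves (log2 0.69, standard error 0.142, adjusted p = 0.0376). Neither pair of groups overlapped. GH_D01G0693 lost its call under median-of-ratios scaling (adjusted p = 0.0559) and with any single library left out (adjusted p 0.0526 to 0.121). GH_A01G0693 was called only without transgenic 1 among these, with adjusted p up to 0.144 in the others.

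The GH3.6 genes next in gene order did not pass the test. GH_D01G0694, the most abundant GH3 gene, measured 46.4, 44.9 and 54.5 FPKM in transgenic leaves and 51.1, 28.6 and 49.2 FPKM in wild-type leaves (log2 0.21, adjusted p = 0.599). GH_A01G0694 averaged 27.5 ± 3.20 FPKM in transgenic leaves and 26.2 ± 1.52 FPKM in wild-type leaves (adjusted p = 0.776). Within a library, which cancels its scaling, the ratio of GH_A01G0693 to GH_A01G0694 was 0.901, 0.953 and 0.944 in the transgenic libraries and 0.607, 0.497 and 0.436 in the wild type, so these groups stood clearly apart. The ratio of GH_D01G0693 to GH_D01G0694 was 0.525, 0.727 and 0.466 in the transgenic libraries and 0.357, 0.581 and 0.298 in the wild type, where wild type 2 lay above 2 of the transgenic libraries. These ratios were chosen after the values were seen and carry no test. As the genes are close copies, their reads may be shared between neighbours.

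The GH3 fall was GH_D11G2121, described as GH3.1, at 2.23, 2.37 and 3.40 FPKM in transgenic leaves and 6.68, 5.52 and 5.74 FPKM in wild-type leaves (log2 -0.94, standard error 0.169, adjusted p = 0.0268). The highest transgenic library stayed well below the lowest wild-type library. Leaving out transgenic 1, transgenic 2 or wild type 1 ended its call, with adjusted p up to 0.115. Another GH3.1 gene on the same chromosome, GH_D11G0531, had the opposite sign, at 3.66, 3.19 and 3.23 FPKM in transgenic leaves and 1.70, 0.555 and 2.07 FPKM in wild-type leaves (log2 0.90, adjusted p = 0.0973), without a call. Of the 6 tested GH3.1 genes 2 had a positive difference, and GH_A11G2331, with a negative one, passed the level filter only through the wild type.

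GH3.17-like genes formed the largest group, 28 genes of which 11 were tested and none called with the level filter and all libraries. The closest to a call was GH_D04G0277, at 1.54, 1.22 and 1.60 FPKM in transgenic leaves and 0.489, 0.391 and 0.234 FPKM in wild-type leaves (log2 0.84, adjusted p = 0.0504). It passed the level filter only through the transgenic libraries. With limma it was called without a filter (adjusted p = 0.0414) and with neither trend nor robust estimation (adjusted p = 0.0211). GH_D05G3723 was called without transgenic 1. Of the 11 tested genes 10 had a positive difference, beside 25715 of 42533 genes that averaged 1 FPKM or more across all libraries. The sets are not alike, as GH_D04G0277, at 0.914 FPKM across all libraries, is among the 10 but not among the 42533. GH_A03G1760, also positive, passed the level filter only through the transgenic libraries, and the negative gene, GH_A05G4095, only through the wild type. Elsewhere 7 GH3.17-like genes lay almost side by side on chromosome A11, from GH_A11G3235 to GH_A11G3245, and the highest value of any of them in any library was 0.0590 FPKM. Over the 24 GH3 genes that averaged 1 FPKM or more across all libraries, 18 differences were positive and the median was 0.18 on the log2 scale, beside 0.08 over all genes of that level. After median-of-ratios scaling the GH3 median was 0.11.

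**Figure D3:**
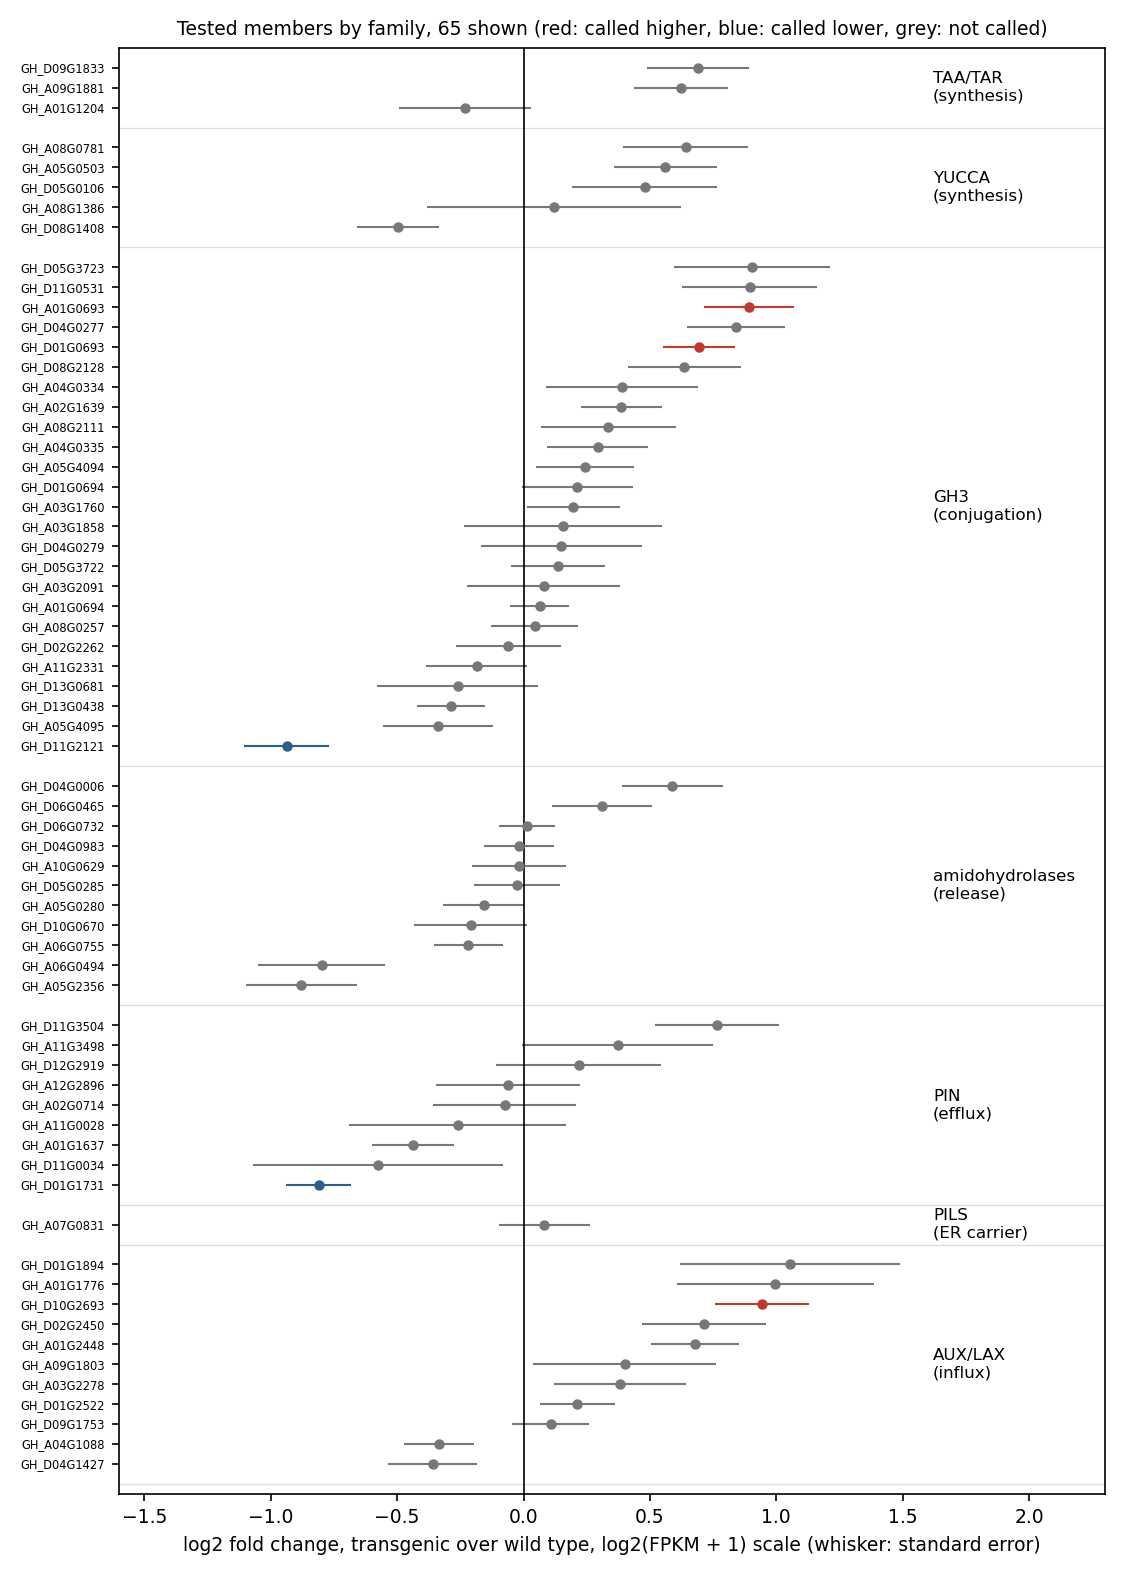
Log2 fold change of transgenic over wild-type libraries on the log2(FPKM + 1) scale for 65 of the 67 tested members, with the standard error, grouped by family and ordered by size. Called members are red (higher) or blue (lower), and the largest on this scale, GH_D01G1894 in AUX/LAX and not called, has a difference of 1.06 with a standard error of 0.435.

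The amidohydrolases, which release IAA from its conjugates, had no call among 11 tested genes by limma. An unadjusted p under 0.05 was found in 3 of them, beside 24% of all genes tested. The most abundant, GH_D06G0465 (ILR1-like 6), measured 23.2, 19.3 and 28.9 FPKM in transgenic leaves and 14.5, 20.6 and 21.9 FPKM in wild-type leaves, with overlapping groups (adjusted p = 0.379). A further ILR1-like 6 gene had the largest difference of the family in the other direction. GH_A05G2356 measured 0.130, 0.532 and 0.423 FPKM in transgenic leaves and 1.11, 1.81 and 1.58 FPKM in wild-type leaves (log2 -0.88, standard error 0.220, adjusted p = 0.0633), and it passed the level filter only through the wild type. Without trend and without robust estimation, limma called it lower (adjusted p = 0.0395). GH_A06G0494, also ILR1-like 6, averaged 1.93 ± 0.417 FPKM in transgenic leaves and 4.23 ± 1.58 FPKM in wild-type leaves (adjusted p = 0.111), and was called only without wild type 3. The 6 ILR1-like 4 genes, all tested, together ranged from 57.4 to 64.3 FPKM in transgenic leaves and from 62.6 to 67.9 FPKM in wild-type leaves.

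Among PIN efflux carriers 1 gene fell and 1 rose of 11 tested. The fall with the smallest adjusted p of all members was GH_D01G1731, described as PIN4-like, of the group of carriers that in Arabidopsis moves auxin sideways in shoots. It measured 15.0, 12.9 and 17.6 FPKM in transgenic leaves and 27.8, 25.4 and 28.2 FPKM in wild-type leaves (log2 -0.81, standard error 0.129, adjusted p = 0.0182). No library came near the other group. It was the most abundant PIN gene, with 20.4% of the family's summed level in the transgenic libraries and 34.4% in the wild type, and only leaving out transgenic 2 or wild type 1 ended its call, with adjusted p up to 0.0866. The PIN3-like gene GH_A01G1637 was also lower without overlap, at 8.19, 6.54 and 9.17 FPKM in transgenic leaves and 12.7, 9.22 and 11.4 FPKM in wild-type leaves, but was not called (log2 -0.44, adjusted p = 0.160).

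Further PIN genes showed no common direction. GH_D11G3504 averaged 5.94 ± 2.06 FPKM in transgenic leaves and 2.96 ± 0.420 FPKM in wild-type leaves (adjusted p = 0.116). GH_D11G0034, a PIN carrier on the same chromosome, measured 1.04, 2.06 and 2.11 FPKM in transgenic leaves and 4.61, 5.60 and 0.737 FPKM in wild-type leaves, where wild type 3 lay below every other library (adjusted p = 0.521). Neither was called with all libraries, but GH_D11G3504 was called higher without transgenic 1 and GH_D11G0034 lower without wild type 3. The PIN2-like genes, 2 in number and root carriers in Arabidopsis, were listed at 0 throughout, as were 2 of the 4 PIN8 genes. Over the 11 tested PIN genes the median difference was -0.06, a sign that turned without transgenic 1, transgenic 2, wild type 1 or wild type 3 (0.04 to 0.13). The PILS gene found by the description, GH_A07G0831 (PIN-LIKES 2), measured 1.47, 1.35 and 1.499 FPKM in transgenic leaves and 1.49, 0.979 and 1.49 FPKM in wild-type leaves (adjusted p = 0.819).

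**Figure D4:**
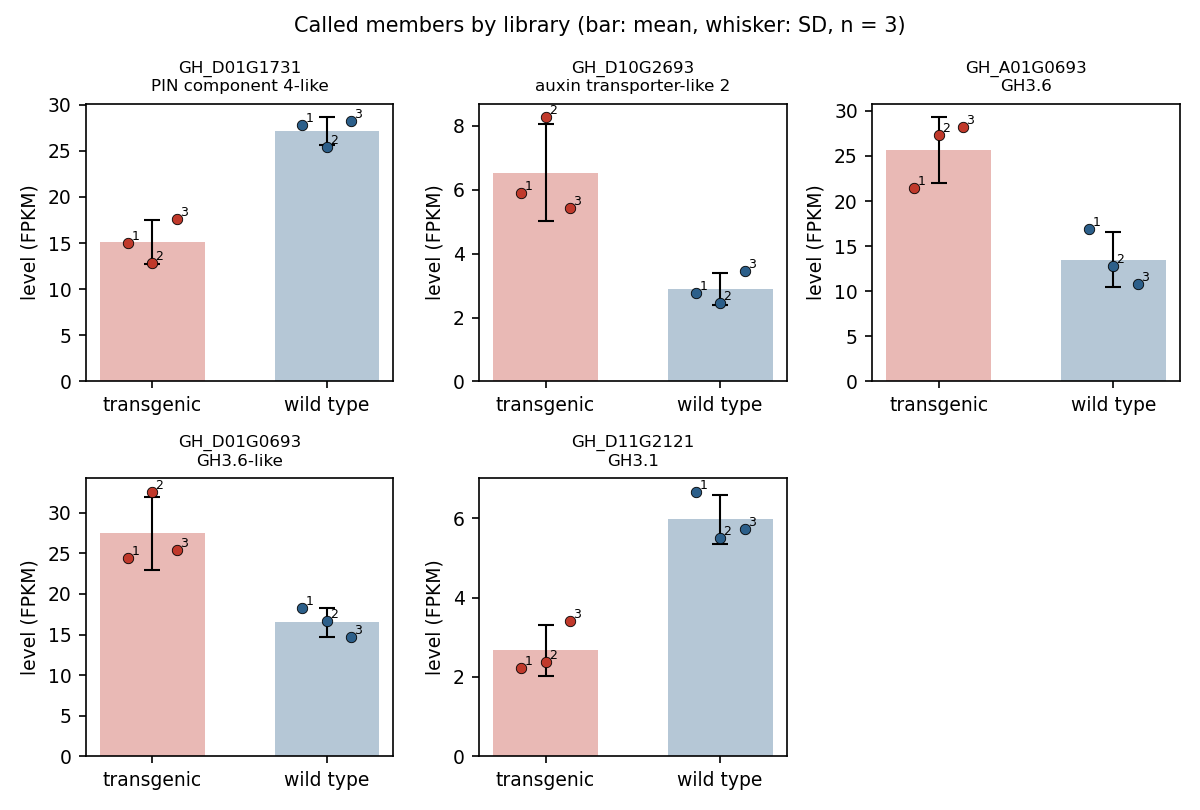
Levels of 5 called members in FPKM, transgenic left and wild type right, with each library as a numbered point, the mean as a bar and the SD as a whisker. The groups do not overlap in any panel, and the PIN4-like gene lies at 12.9 to 17.6 FPKM in transgenic leaves against 25.4 to 28.2 FPKM in wild-type leaves.

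AUX1/LAX influx carriers had 1 rise among 11 tested genes and no fall. GH_D10G2693, auxin transporter-like protein 2, measured 5.89, 8.28 and 5.44 FPKM in transgenic leaves and 2.77, 2.46 and 3.44 FPKM in wild-type leaves (log2 0.94, standard error 0.187, adjusted p = 0.0345). With a single library left out it was called only without wild type 3, and adjusted p reached 0.124 in the others. Of 10 genes that averaged 1 FPKM or more across all libraries, 8 had positive differences, beside 25715 of 42533 over all genes of that level. The median of the 10 was 0.54 (beside 0.08 over all genes of that level), or 0.45 after median-of-ratios scaling. GH_A01G2448 measured 25.8, 23.6 and 16.4 FPKM in transgenic leaves and 13.9, 11.8 and 13.7 FPKM in wild-type leaves (log2 0.68, adjusted p = 0.0674). It had no overlap between the groups and was called only without transgenic 3 (adjusted p = 0.0362).

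Spread within the groups differed between influx carriers. It was wide in the most abundant, and close to that of all genes in GH_A04G1088, at 1.23 and 1.33 times between the highest and lowest library of the transgenic and wild-type groups. GH_A09G1803 measured 40.0, 37.7 and 27.4 FPKM in transgenic leaves and 23.9, 46.7 and 15.5 FPKM in wild-type leaves (adjusted p = 0.545). GH_D01G1894 had the largest difference of the tested members on the log2(FPKM + 1) scale (1.06, standard error 0.435), which became 0.64 without wild type 2. With a pseudocount of 0.1 it was 1.199, below the 1.75 of GH_D04G0277. Its values of 6.72, 14.5 and 16.5 FPKM in the transgenic libraries overlapped with 5.89, 2.48 and 8.74 FPKM in wild-type leaves (adjusted p = 0.196). Across the 67 tested members, the highest library was a median of 1.502 times the lowest within the transgenic group and 1.61 times within the wild type, beside 1.30 and 1.34 times over all tested genes above 0 in each library of the group. Transgenic 3 was the highest of its group in 40 members and transgenic 1 the lowest in 34. In the wild type, wild type 2 was highest in 29 and lowest in 27, and wild type 3 lowest in 31.

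Markers of vascular wood formation moved with the same groups. Of 55 tested genes of the xylem secondary wall list, 25 were called higher in the transgenic libraries (beside 3.92% of all genes) and none lower. As 32 of the 55 passed the level filter through the transgenic libraries alone, they were bound to differ in that direction, and the count is given as a description. The list summed to 291 to 416 FPKM in transgenic leaves and 178 to 210.4 FPKM in wild-type leaves, with 12 of its 90 genes at 0 in every library. Markers of dividing cells summed to 41.0 to 48.2 FPKM in transgenic leaves and 33.4 to 38.2 FPKM in wild-type leaves, with 3 of 30 genes at 0 throughout. None of 10 tested genes was called by limma, and 2 had an unadjusted p under 0.05 (beside 24% of all genes tested). Of these 10 genes 5 passed the level filter through the transgenic libraries alone. Of the mesophyll markers 25 of 84 were lower (beside 1.78% of all genes) and 4 higher (beside 3.92%), and 8 of 104 were at 0 throughout. Of the 84 tested, 6 passed the level filter through the wild type alone. Phloem markers had 1 of 29 tested genes lower (beside 1.78%) and epidermal markers 6 of 58 higher (beside 3.92%), with sums that overlapped between the groups. Of the 29 phloem genes, 4 passed the level filter through the wild type alone and 1 through the transgenic libraries alone. Of the 58 epidermal genes, 4 passed it through the transgenic libraries alone. The single floral marker gene, not called, had 0 to 0.547 FPKM in transgenic leaves and 0.890 to 7.14 FPKM in wild-type leaves. It passed the level filter through the wild type alone. The part of these tissues in the differences of the PIN, AUX/LAX, GH3 and TAR genes was not tested.

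Proteins that act with the carriers were searched as a further list. D6PK kinases, which phosphorylate PIN proteins in Arabidopsis and switch on their export, rose in 4 of 25 tested genes and fell in none. Over all genes tested 3.92% rose and 1.78% fell, and the kinases are a part of the wider list of PIN regulators given below. The D6PK-like gene GH_D01G0909 measured 39.6, 39.7 and 38.4 FPKM in transgenic leaves and 22.3, 29.0 and 20.6 FPKM in wild-type leaves (log2 0.70, standard error 0.135, adjusted p = 0.0325). GH_A01G0890 averaged 46.2 ± 6.55 FPKM in transgenic leaves and 26.99 ± 4.02 FPKM in wild-type leaves, and the D6PKL2-like genes GH_D09G1072 and GH_A09G1121 had log2 fold changes of 1.06 and 1.11. At 0.919 ± 0.343 FPKM in wild-type leaves, GH_A09G1121 passed the level filter through the transgenic libraries alone. Its mean was therefore bound to be higher there. With the other PIN regulators searched (PINOID, BREVIS RADIX and NPY), 4 of 55 tested genes rose and 1 fell, or 9.09% called, beside 5.7% of all genes, where rises also outnumber falls. Of these 55 genes, 6 passed the level filter through the transgenic libraries alone and 1 through the wild type alone. The fall was GH_D06G1138, NPY1-like, at 12.8 ± 1.39 FPKM in transgenic leaves and 18.8 ± 0.901 FPKM in wild-type leaves (log2 -0.52, adjusted p = 0.0414). GH_D01G0909 was called only when wild type 2 was the library left out, and GH_D06G1138 only when it was transgenic 1 (adjusted p up to 0.153 in the others).

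Of the ABCB carriers searched, exporters of auxin that act beside the PINs, 2 of 9 tested genes rose, beside 3.92% of all genes. GH_D09G0219 (ABCB19) measured 3.35, 7.97 and 8.58 FPKM in transgenic leaves and 1.19, 1.14 and 1.53 FPKM in wild-type leaves (log2 1.66, standard error 0.306, adjusted p = 0.0282). GH_A09G1637 (ABCB1) averaged 11.1 ± 0.533 FPKM in transgenic leaves and 7.26 ± 0.457 FPKM in wild-type leaves (log2 0.55). Leaving out transgenic 2, transgenic 3 or wild type 1 ended the ABCB19 call, with adjusted p up to 0.124. IAA is also removed by oxidation, and the DAO-like dioxygenase GH_D07G2032 was lower. It measured 17.8, 12.8 and 13.2 FPKM in transgenic leaves and 42.8, 37.9 and 27.0 FPKM in wild-type leaves (log2 -1.23, standard error 0.196, adjusted p = 0.0184), a call lost without the same 3 libraries, with adjusted p up to 0.0940. The other DAO-like gene, GH_A07G2040, averaged 13.96 ± 3.05 FPKM in transgenic leaves and 22.1 ± 4.65 FPKM in wild-type leaves (adjusted p = 0.111), and IAA methyltransferases, 2 genes, were not called.

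Tryptophan synthesis, which supplies the precursor, had no call among 20 tested genes by limma, with 2 at an unadjusted p under 0.05. Its summed level was 312 to 315 FPKM in transgenic leaves and 318 to 323 FPKM in wild-type leaves. Auxin receptors of the TIR1/AFB type had none of 16 called (3 at an unadjusted p under 0.05). PIF factors, which activate auxin genes in shade in Arabidopsis, had none of 9 called (1 at an unadjusted p under 0.05). Over all genes tested, 24% had an unadjusted p under 0.05.

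Response factors were called in small numbers, to be read beside 3.92% of all genes called higher and 1.78% called lower. Aux/IAA repressors had 1 rise and 1 fall among 43, namely GH_D05G1283 (IAA16, 11.5 ± 1.95 FPKM in transgenic leaves and 5.997 ± 0.642 FPKM in wild-type leaves) and GH_A09G2433 (IAA14-like, 19.1 ± 4.18 FPKM in transgenic leaves and 39.5 ± 10.52 FPKM in wild-type leaves). ARF genes rose in 4 of 63. GH_A11G1232, ARF23-like, measured 12.6, 18.8 and 24.1 FPKM in transgenic leaves and 2.42, 4.54 and 4.08 FPKM in wild-type leaves (log2 2.05, standard error 0.266, adjusted p = 0.0107), and this call ended only without transgenic 2 (adjusted p = 0.0668). The other rises were the ARF23-like genes GH_D11G1262 and GH_D08G0778 (log2 1.37 and 0.90) and GH_A09G1219 (ARF4-like, 0.54). SAUR genes fell in 2 of 45, GH_A09G1641 (SAUR71-like, log2 -1.62) and GH_A06G0045 (auxin-induced protein 15A, -1.99). GH_A09G1641 averaged 0.0140 ± 0.0243 FPKM in transgenic leaves and 2.25 ± 1.09 FPKM in wild-type leaves. It passed the level filter through the wild type alone, so its mean was bound to be lower in transgenic leaves. Of the 45 SAUR genes, 9 passed through the wild type alone and 4 through the transgenic libraries alone. HD-ZIP class II genes rose in 2 of 19, with the HAT3-like GH_A12G1123 at 129 ± 30.7 FPKM in transgenic leaves and 54.8 ± 15.5 FPKM in wild-type leaves and the HAT4-like GH_A08G1926 at a log2 fold change of 0.67. GH_D05G1283, GH_A09G2433, GH_A09G1641 and GH_A12G1123 each lost the call when transgenic 2, transgenic 3 or wild type 1 was left out, with adjusted p up to 0.173, and GH_A09G2433 and GH_A09G1641 also when transgenic 1 or wild type 3 was.

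**Figure D5:**
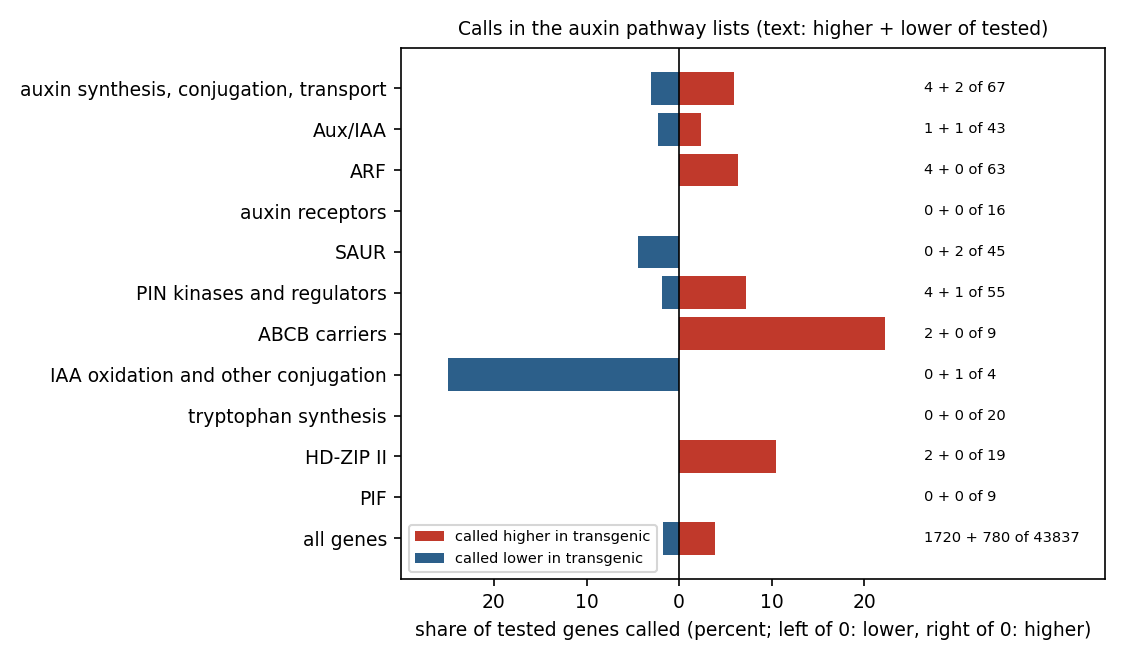
Share of tested genes called higher (right) or lower (left) in the transgenic libraries, in percent, for the 138 auxin genes and for each further list of the pathway, with all tested genes at the bottom at 3.92% higher and 1.78% lower. The numbers at the right give calls higher and lower and the genes tested, so that the long bars of ABCB carriers (2 of 9) and IAA oxidation (1 of 4) rest on very few genes.

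The authors' deposited table marked 14 of the 138 members as significant (10.1%, beside 5.12% of all 72761 genes), 10 with higher values in transgenic leaves (beside 3.18% of all genes) and 4 with lower (beside 1.93%). In the authors' deposited table a mark required at least a 2-fold ratio of mean FPKM, and the largest p-value of a marked gene was 0.0497, while the adjusted p (q-value) reached 0.257. GH_D11G2121 (GH3.1) and GH_D10G2693 (auxin transporter-like 2) were both marked there and called here, which is 2 of 14 marks and 2 of 6 calls. In the authors' deposited table their log2 ratios were -1.16 and 1.18, with q-values of 4.64e-05 and 0.00243. The PIN4-like and GH3.6 calls had ratios under 2-fold and so no mark. Of the other 12 marks in the authors' deposited table, 11 were on genes tested here without a call, among them the AUX/LAX genes GH_D01G1894, GH_A01G1776 and GH_D02G2450, and 1 was on the YUCCA6-like GH_D05G0503.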

How the data were processed

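Poly-A selected leaf RNA of 6 libraries (3 transgenic, 3 wild type, grouped by the treatment label) was read from 1 table. Per the file headers, the authors deposited FPKM per gene and library, a fold (the ratio of mean FPKM), its log2, and p-values with q-values from an unnamed test. Aligner, counter, genome build, strand use and handling of multiply matching reads are not given in the sources used here. The value 0.0001 was read as 0. No counts were analysed, so no count test was run, and no interval for counting error is given.

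Genes that averaged 1 FPKM or more in either group entered limma 3.58.1 (R 4.3.3) on log2(FPKM + 1), with intensity trend and robust estimation, two-sided, and Benjamini-Hochberg adjustment over all 43837. Calls are at an adjusted p under 0.05. Alternatives were 2 further scalings, a pseudocount of 0.1, other filters, a fit with neither trend nor robust estimation, a replicate block and leaving out each library.

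Named genes were every called member but 1, which is not reported here, the most abundant and the most changed member of each family, the 5 nearest to a call, and the first call of each pathway list in each direction. Genes named beyond these were chosen after their values were seen, to complete small counts or to show a gene beside a named one. The members and lists were chosen with earlier results of these data known. Lists are regular expressions on protein descriptions. None of the 138 identifiers matched the RefSeq gene table, so positions are chromosome and order as read from the identifiers.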

Additional observations from a re-analysis of the deposited data

How the results depend on the processing

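The 4 rises and 2 falls kept these numbers with upper quartile scaling, with a pseudocount of 0.1 and with the filter on the mean of all libraries. After median-of-ratios scaling 3 rises and 2 falls were left. Without a filter there were 3 and 2, among them only 3 of the 6 genes called. With neither trend nor robust estimation there were 4 and 3, with 5 of the 6. With the replicate number as a block, 1532 genes were called in all, 0 members higher and 1 lower, the PIN4-like GH_D01G1731. Deviations of same-numbered libraries from their group means correlated at 0.0118, 0.0263 and 0.0734 over 42533 genes. Those of differently numbered libraries correlated at -0.0845 to 0.0588. With 3 libraries per group such values cannot decide whether the numbers mark a shared batch, and the labels do not say so. With 1 library left out, calls over all genes ranged from 289 to 2552, members higher from 0 to 4 and members lower from 0 to 4. Of the 19 members followed through the settings, GH_A05G2356 and GH_D04G0277 were below the filter on the mean of all libraries. The members whose sign turned were GH_D01G0694 (log2 -0.0496 to 0.36) and GH_A07G0831 (-0.029 to 0.14), neither called, both without wild type 2. Fewer libraries also leave fewer degrees of freedom. The cause of the other losses was not tested. The depth behind each FPKM is unknown, so the precision of values below 1 FPKM cannot be given.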

Other observations

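Of the 71 members too low or silent for the test, 6 (8.45%) had groups that did not overlap. The share over all untested genes is not known here, so the 6 genes are given as a description only. Besides the YUCCA6-like GH_D05G0503 these were 3 GH3 genes, a TAR3-like gene and an AUX/LAX gene. GH_D12G0202 (GH3.1) measured 0.757, 1.00 and 1.08 FPKM in transgenic leaves and 0.665, 0.131 and 0.701 FPKM in wild-type leaves. The GH3.17-like genes GH_D11G3259 and GH_D08G0273 were higher in the transgenic libraries, at 0.300 to 0.377 and 0.153 to 0.308 FPKM, against 0 to 0.152 and 0.0661 to 0.132 FPKM in wild-type leaves. GH_D07G1681 (TAR3-like) measured 0.345, 0.293 and 0.456 FPKM in transgenic leaves and 0.0798, 0.223 and 0 FPKM in wild-type leaves. GH_A05G3443 (auxin transporter-like 2) was the gene lower in the transgenic libraries, at 0, 0.107 and 0.0412 FPKM, against 0.302, 0.593 and 0.118 FPKM in wild-type leaves. At these levels a value may rest on few fragments, and the number is unknown.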
